A study of Mus musculus with 8 samples.

Results

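The genes described here are 10 transcription factors that pattern the mesenchyme of the body cavity lining, the urogenital system and the gut wall: Wt1, Tcf21, Gata4, Gata6, Foxf1, Bnc2, Osr1, Osr2, Hand2 and Hlx. They were chosen by symbol for their roles in the embryo, with earlier results of these data known. All 10 were among the 17967 gene symbols measured. Bulk RNA sequencing was done on adipose-derived stem cells, fibroblast-like cells that include the progenitors of fat cells, sorted by flow cytometry from collagenase-digested white fat. The cells came from epididymal fat (EWAT), perirenal fat (NWAT) and subcutaneous inguinal fat (SWAT), with 2 libraries per depot and 6 in all. All groups were male wild-type C57BL/6J mice on a chow diet, and no age, genetic alteration or treatment is stated. The mesenteric depot was not analysed here. The sources used here do not give the surface markers of the sorting gate.

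The mesoderm of the embryonic trunk splits into an inner, splanchnic layer that forms the mesenchyme of the viscera and an outer, somatic layer that contributes to limb buds and body wall, and both are lined by the coelomic epithelium. Wt1, Tcf21, Gata4 and Gata6 act in the coelomic epithelium and the gonads, kidneys, heart and other organs that arise beside it, and Foxf1 and Hlx act in the mesenchyme of the gut wall. Osr1 marks the intermediate mesoderm that forms the urogenital system, whereas Osr2 and Hand2 also act in the limb and face. Lineage tracing in mice has traced fat cells of visceral depots, but not of subcutaneous depots, to cells that expressed Wt1.

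The libraries held 20026413 to 20638724 estimated counts each, and 1 count was worth 0.0449 to 0.0548 CPM (counts scaled to library size with TMM factors). Progenitor markers were abundant in every library, with a summed level over 11 genes of 45900 to 48620 CPM in EWAT, 47520 to 48890 CPM in NWAT and 119300 to 124800 CPM in SWAT. The collagen genes Col1a1, Col1a2 and Col3a1 carry the SWAT excess of this sum. The other 8 genes summed to 20290 and 20980 CPM in EWAT, 14530 and 15650 in NWAT and 14550 and 14840 CPM in SWAT. Most abundant of these 8 was Dcn, at a mean of 15140 CPM in EWAT, 9200 CPM in NWAT and 8392 CPM in SWAT. Thy1 (171, 274 and 490 CPM), Pdgfrb (312, 337 and 506 CPM) and Ly6a (585, 798 and 840 CPM) were also highest in SWAT. In the tests described below, 2 of the 11 were higher and 6 lower in EWAT than in SWAT. In NWAT against SWAT 0 were higher and 6 lower, and 36.7% and 18.9% of all genes were called in these pairs. Pdgfra, a defining progenitor marker, stood at 1165 and 936 CPM in EWAT, 1420 and 1443 in NWAT and 1233 and 1174 CPM in SWAT. Skin and mammary epithelial markers summed to at most 0.286 CPM over 6 genes. Whether the 2 libraries of a depot stem from different mice is not stated, and p-values therefore measure no more than the differences between these samples, which can be technical. In bulk samples fewer cells of a type and less RNA per cell cannot be told apart.

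A joint test for any depot difference (edgeR, quasi-likelihood, Benjamini-Hochberg adjusted p under 0.05 over 13694 genes, the threshold for every call here) called all 10 genes. In the same test 41.7% of all genes were called, and the 10 genes were chosen with earlier results of these data known. Between EWAT and SWAT, 6 of the 10 were higher in EWAT and 4 lower, against 18.7% and 18% of all genes (36.7% in either direction). The lower calls were the less stable. In DESeq2, 6 were higher and 2 lower, while calls over all genes fell from 5020 to 3996. Lower calls were also lost without EWAT replicate 2 or either SWAT library, and the higher call of Osr1 without SWAT replicate 2. In these settings fewer libraries were fitted and fewer of all genes were called. Between NWAT and SWAT, 6 were higher in NWAT and 3 lower, against 9.83% and 9.07% of all genes (18.9% in either direction). Between EWAT and NWAT, 3 were higher in EWAT and 1 lower, against 13.3% and 14% of all genes (27.3% in either direction), and without EWAT replicate 2 they were 1 and 1. The 3 comparisons share libraries. Gata4 passed the filter on low counts through EWAT alone and Hand2 through SWAT alone, so for these a difference is built into being tested, and Wt1, Tcf21 and Foxf1 were carried by EWAT and NWAT. The other 5 genes, Gata6, Bnc2, Osr1, Osr2 and Hlx, were over the minimum in all 6 libraries. Of these 5, 5 were called between EWAT and SWAT, 5 between NWAT and SWAT, and 2, Gata6 and Hlx, between EWAT and NWAT.

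**Figure D1:**
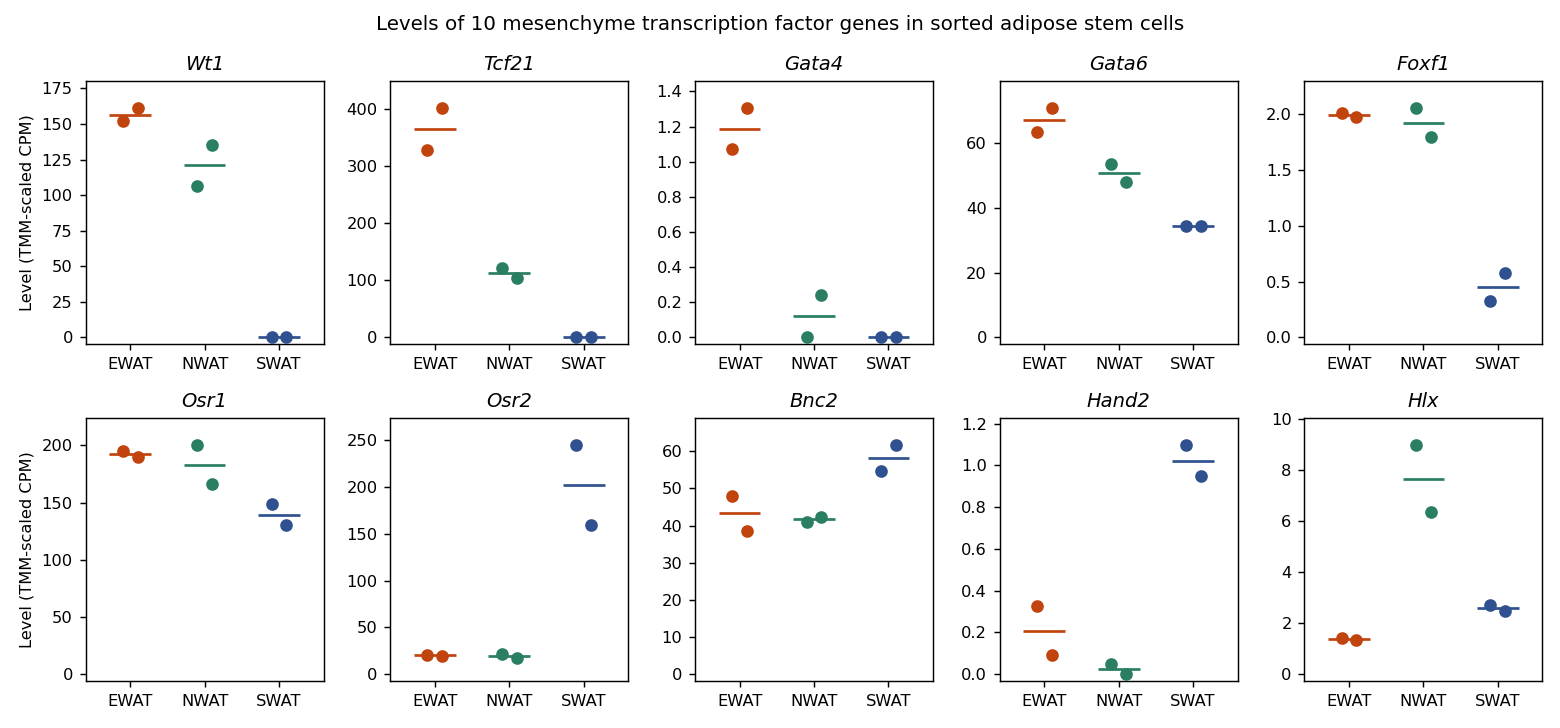
Level of each gene in TMM-scaled CPM (y axis, from 0, with its own scale per gene) in the 2 libraries of each depot (points) and their mean (line). Wt1, Tcf21, Gata4, Gata6, Foxf1 and Osr1 are lowest in SWAT, Osr2, Bnc2 and Hand2 are highest in SWAT, and Hlx is highest in NWAT.

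Wt1 codes for a zinc finger transcription factor needed for the kidneys, gonads and epicardium. It stood at 152 and 161 CPM in EWAT, 106 and 135 in NWAT and 0 CPM in both SWAT libraries. The EWAT and NWAT libraries rested on 2230 to 3581 counts each, and no read was assigned to Wt1 in SWAT. With a floor of 3 counts per library, the level in EWAT was at least 968.9-fold higher than in SWAT, and that in NWAT at least 749.3-fold higher than in SWAT. It had the largest absolute log2 fold change of all 13694 genes in both comparisons with SWAT, a rank that for a gene at 0 counts depends on the prior count. EWAT and NWAT did not overlap, but the difference of 0.37 ± 0.13 on the log2 scale (SE) was not called (edgeR adjusted p = 0.0501). It was called, at 0.37 to 0.56, under 5 of 13 alternatives, among them DESeq2 (0.37), no filter on low counts (0.37) and without NWAT replicate 2 (0.56). On GRCm38.p6, GENCODE M21 places the gene on chromosome 2 from 105126529 to 105173616 on the plus strand, with 10 merged exons, and its divergent antisense gene Wt1os starts 5′ of it without shared exons.

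Tcf21 codes for a basic helix-loop-helix factor of the epicardium, lung, spleen and urogenital mesenchyme. It reached 328 and 401 CPM in EWAT, 121 and 104 in NWAT, and 0.165 and 0.105 CPM in SWAT. The 3 depots did not overlap, and the order EWAT, NWAT, SWAT held in every library. Tcf21 was 3.24-fold higher in EWAT than in NWAT (log2 fold change 1.70 ± 0.13, edgeR adjusted p = 2.32e-06). The SWAT libraries held 3 and 2 counts, so that EWAT was 2717-fold (95% counting interval 1164 to 8370) and NWAT 838-fold (359 to 2582) higher. These intervals cover counting error only. On the length-scaled FPKM values (fragments scaled by gene length and library size), Tcf21 was above 98.8% and 98.9% of all genes in EWAT, above 97.0% and 96.4% in NWAT, and above 24.5% and 20.2% in SWAT. By p-value in the joint test Tcf21 was number 3 of 13694 genes and Wt1 number 20. The gene has 2 exons on chromosome 10, from 22817281 to 22820174 on the minus strand.

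Tcf21, Hlx and Hand2, 3 genes with different depot patterns, are shown here by the bases before their RefSeq starts (GRCm38.p6). Promoter windows were found for 4 of the 10 genes, the fourth being Bnc2, whose window lies inside the gene as GENCODE places it. Each line gives up to 250 bases upstream, 5′ to 3′ on the gene's strand, without bases that GENCODE counts as exon, and capitals mark CpG dinucleotides.
Tcf21: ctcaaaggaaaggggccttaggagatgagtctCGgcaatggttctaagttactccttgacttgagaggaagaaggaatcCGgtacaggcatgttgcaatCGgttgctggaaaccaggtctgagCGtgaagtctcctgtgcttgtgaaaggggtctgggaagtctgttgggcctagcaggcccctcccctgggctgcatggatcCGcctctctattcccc
Hlx: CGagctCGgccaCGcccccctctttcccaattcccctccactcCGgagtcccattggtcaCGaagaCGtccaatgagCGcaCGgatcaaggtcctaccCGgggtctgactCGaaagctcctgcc
Hand2: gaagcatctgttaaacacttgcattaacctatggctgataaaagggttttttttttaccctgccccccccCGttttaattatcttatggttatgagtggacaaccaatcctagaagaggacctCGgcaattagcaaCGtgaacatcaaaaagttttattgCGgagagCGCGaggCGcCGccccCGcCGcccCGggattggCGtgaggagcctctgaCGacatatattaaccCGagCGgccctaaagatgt
The Tcf21 line is chr10:22820175-22820393 on the minus strand, 219 bases with 5 CpG sites. The Hlx line is chr1:184732620-184732743 on the minus strand, 124 bases with 10 CpG sites. The Hand2 line is chr8:57320733-57320982 on the plus strand, 250 bases with 15 CpG sites. Over the full 250 bases, the ratio of observed to expected CpG was 0.293 for Tcf21, 1.04 for Hlx and 0.993 for Hand2, against a median of 0.373 over 32851 promoter windows of that length. The ratio was above that of 42.1% of all windows for Tcf21, 95.8% for Hlx and 94% for Hand2. GENCODE counts 31 of the 250 bases as exon for Tcf21, 126 for Hlx and 0 for Hand2. The Bnc2 window held 0 CpG sites. A link between CpG sites and RNA levels was not tested. The letters AGATAA of a GATA site, searched on both strands, matched once in the Tcf21 window, within bases that GENCODE counts as exon, once in that of Hand2 and not in that of Hlx; 9.99% of all windows held them. These are descriptions of letters in a window, not of bound sites.

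Gata6 and Gata4 code for zinc finger factors of the heart, gonads and coelomic epithelium, and Gata6 also acts in resident macrophages of the peritoneal cavity. Gata6 was by far the more abundant of the pair. It stood at 63.3 and 70.7 CPM in EWAT, 53.4 and 48.0 in NWAT and 34.4 and 34.4 CPM in SWAT, with no overlap between depots. It was 1.95-fold higher in EWAT (log2 fold change 0.96 ± 0.11, edgeR adjusted p = 2.85e-05) and 1.47-fold higher in NWAT (0.56 ± 0.11, edgeR adjusted p = 0.00301) than in SWAT. Unlike Wt1 and Tcf21, which were at or near 0 there, Gata6 still reached 9.6 and 9.89 FPKM in SWAT. EWAT was above NWAT by 0.40 ± 0.10 (edgeR adjusted p = 0.0136), a call that was lost without EWAT replicate 2 (0.32) or NWAT replicate 2 (0.33). Of 11 macrophage markers, 6 were higher and 0 lower in EWAT than in SWAT (median log2 fold change 1.498), 1 was higher and 0 lower in NWAT than in SWAT (0.04), and 7 were higher and 0 lower in EWAT than in NWAT (1.48). Their sum was 45.5 and 44.5 CPM in EWAT, 27.6 and 25.6 in NWAT and 19.4 and 28.7 CPM in SWAT, and without Cd68, the most abundant and not called in any pair, 30.9 and 32.2 CPM in EWAT, 15.7 and 12.2 in NWAT and 12.4 and 14.03 CPM in SWAT. Of all genes, 36.7%, 18.9% and 27.3% were called in these pairs, in the same order. Adgre1, Ptprc and C1qa passed the filter on low counts through EWAT alone, and Fcer1g through EWAT and NWAT. For these markers a difference is built into being tested, and the counts and medians include them. The part of macrophage RNA in the Gata6 difference was not tested. Gata6 lies on chromosome 18 from 11052064 to 11085635 on the plus strand, and 1.43% of its exonic bases overlap an antisense transcript.

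Gata4 was close to the detection limit. It had 23 and 29 counts (1.07 and 1.30 CPM) in EWAT, 0 and 5 counts in NWAT and 0 counts in both SWAT libraries. EWAT was at least 7.37-fold above SWAT with the floor of 3 counts per library, and 9.9-fold (95% counting interval 3.98 to 31.8) above NWAT. The call against NWAT (log2 fold change 3.24 ± 0.75, edgeR adjusted p = 0.00981) was lost in DESeq2 (3.30), without EWAT replicate 2 (3.09) and without NWAT replicate 1 (2.27). Without NWAT replicate 2, which holds all 5 NWAT counts, the fitted value was 7.61, which then depends on the prior count. NWAT and SWAT could not be told apart at this depth (edgeR adjusted p = 0.206). The gene lies on chromosome 14 from 63198922 to 63271692 on the minus strand. On length-scaled values Gata4 made up 1.56% and 1.69% of the Gata4 and Gata6 sum in EWAT and at most 0.451% in NWAT and SWAT.

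Foxf1 codes for a forkhead factor of the splanchnic mesoderm that responds to Hedgehog signals. It was weakly expressed, at 2.01 and 1.98 CPM in EWAT, 2.05 and 1.80 in NWAT and 0.329 and 0.580 CPM in SWAT. The EWAT and NWAT libraries overlapped each other and lay above both SWAT libraries. Foxf1 was 4.36-fold higher in EWAT (95% counting interval 2.57 to 7.82; log2 fold change 2.11 ± 0.38, edgeR adjusted p = 0.00120) and 4.21-fold higher in NWAT (2.47 to 7.58; 2.06 ± 0.38, edgeR adjusted p = 0.00264) than in SWAT. Between EWAT and NWAT the difference was 0.05 ± 0.30 (edgeR adjusted p = 0.921). The SWAT level rested on 6 and 11 counts. On chromosome 8 the gene spans 121084386 to 121088144 on the plus strand. Its paralogue Foxf2, another factor of the gut mesenchyme, was likewise lowest in SWAT, at 2.46 CPM in EWAT, 2.43 CPM in NWAT and 0.834 CPM in SWAT.

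Hlx codes for a homeobox factor of the gut and liver mesenchyme and was the 1 gene of the 10 that was highest in perirenal cells. It stood at 1.40 and 1.35 CPM in EWAT, 8.97 and 6.36 in NWAT and 2.69 and 2.48 CPM in SWAT. The depots did not overlap, and the order was NWAT, SWAT, EWAT. Hlx was 2.97-fold (95% counting interval 2.36 to 3.78) higher in NWAT than in SWAT (log2 fold change 1.57 ± 0.23, edgeR adjusted p = 5.68e-04). EWAT lay below NWAT by a log2 fold change of -2.48 ± 0.25 (edgeR adjusted p = 2.11e-05), a 5.59-fold (4.23 to 7.49) difference. EWAT also lay below SWAT (-0.91 ± 0.27, edgeR adjusted p = 0.0222), with 30 and 30 counts in EWAT against 49 and 47 in SWAT. This last call was lost under 6 alternatives, at -0.97 to -0.31, among them DESeq2 (-0.92), both FPKM settings (-0.31 and -0.60) and without EWAT replicate 2 (-0.89), SWAT replicate 1 (-0.85) or SWAT replicate 2 (-0.97). The gene lies on chromosome 1 from 184727140 to 184732619 on the minus strand.

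**Figure D2:**
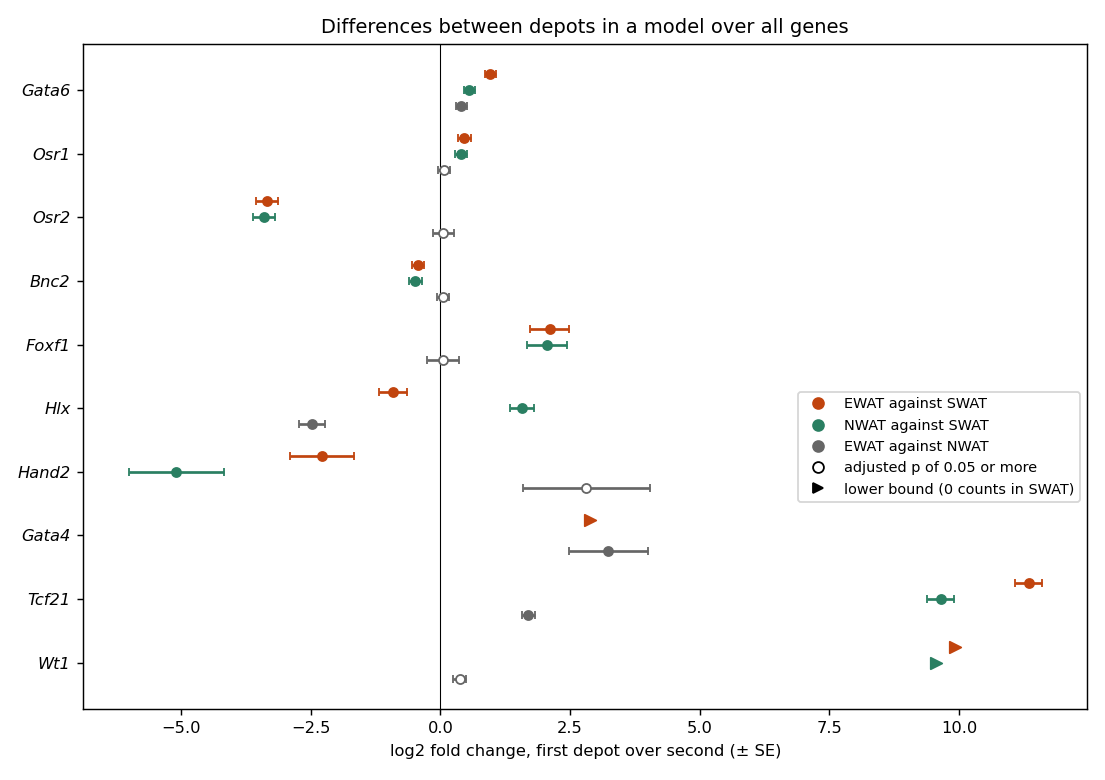
Log2 fold change (x axis) with its SE for each gene (y axis) in the 3 comparisons, first-named depot over second; open points missed the threshold and triangles are lower bounds where SWAT had 0 counts. Osr2 sits at -3.35 and -3.40 against SWAT while Tcf21 and Wt1 sit beyond 9, and Hlx is below 0 for EWAT and above 0 for NWAT against SWAT.

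The odd-skipped zinc finger genes Osr1 and Osr2 ran in opposite directions. Osr1 stood at 195 and 190 CPM in EWAT, 200.2 and 166 in NWAT and 148 and 130.3 CPM in SWAT. It was abundant in all 3 depots, above 95.45% to 97.1% of genes by FPKM, and both SWAT libraries lay below the other 4. The excess was 1.38-fold in EWAT (log2 fold change 0.47 ± 0.12, edgeR adjusted p = 0.0108) and 1.32-fold in NWAT (0.40 ± 0.12, edgeR adjusted p = 0.0398). Without SWAT replicate 2 neither was called (0.37 and 0.30), and the NWAT call was also lost without SWAT replicate 1 (0.49) or NWAT replicate 1 (0.25).

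Osr2, which acts in the palate, joints and limb, stood at 20.5 and 19.3 CPM in EWAT, 21.3 and 16.9 in NWAT and 245 and 160 CPM in SWAT. It was 10.1-fold (95% counting interval 9.44 to 10.9) lower in EWAT and 10.5-fold (9.80 to 11.4) lower in NWAT than in SWAT. The SWAT libraries differed by more than those of any other depot, yet both were several-fold above all others. The log2 fold changes were -3.35 ± 0.21 for EWAT (edgeR adjusted p = 2.25e-06) and -3.40 ± 0.21 for NWAT (edgeR adjusted p = 5.14e-06), and they stayed within -3.68 and -2.99 over 13 alternatives. EWAT and NWAT overlapped for Osr1 (0.07 ± 0.12, edgeR adjusted p = 0.700) and for Osr2 (0.06 ± 0.21, edgeR adjusted p = 0.861). Per length, Osr2 made up 10.8% and 10.4% of the summed Osr1 and Osr2 FPKM in EWAT, 10.9% and 10.4% in NWAT and 65.6% and 58.6% in SWAT. The sum was 115 and 114 FPKM in EWAT, 117 and 95.4 FPKM in NWAT and 192 and 145 FPKM in SWAT.

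Because the pair runs in opposite directions, the stretch around their longest shared run of bases is shown. It lies in the coding sequence of GENCODE M21 transcripts on chromosome 12 (Osr1) and chromosome 15 (Osr2). Capitals mark the bases that differ.
Osr1: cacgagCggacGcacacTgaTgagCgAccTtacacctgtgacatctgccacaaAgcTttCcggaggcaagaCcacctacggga
Osr2: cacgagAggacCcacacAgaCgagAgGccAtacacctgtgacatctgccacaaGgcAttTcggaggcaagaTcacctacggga
The lines hold 83 bases, of which 11 differ (86.8% identical). The run of lower-case letters in the middle, 23 bases long, is the longest that any protein-coding Osr1 transcript shares with any protein-coding Osr2 transcript. A longer read placed without mismatches on these transcripts therefore fits just 1 of the 2 genes. Other genes were not searched. Among protein-coding transcripts, the longest shared run was 18 bases for Gata4 and Gata6 and 13 bases for Tcf21 and Hand2. Osr1 spans 9570116 to 9581500 and Osr2 35296098 to 35303305 on their chromosomes, both on the plus strand.

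**Figure D3:**
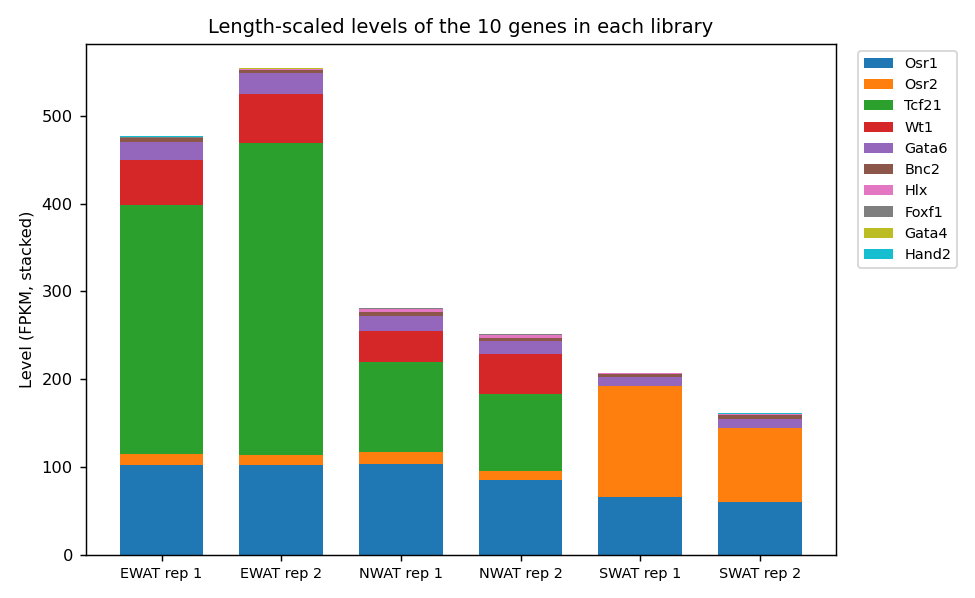
Length-scaled levels (FPKM, y axis) of the 10 genes stacked in each of the 6 libraries. Tcf21 makes up 59.4% and 64.0% of the sum in EWAT, whereas Osr2 makes up 60.7% and 52.5% in SWAT and Osr1 is present in every library.

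Per length, the set was dominated by different genes in each depot. The 10 genes summed to 477 and 554 FPKM in EWAT, 282 and 251 FPKM in NWAT and 208 and 161 FPKM in SWAT. Tcf21 held 59.4% and 64.0% of that sum in EWAT, 36.6% and 35.1% in NWAT and 0.0578% and 0.0497% in SWAT. Osr1 held 21.5% and 18.4% in EWAT, 36.9% and 34.0% in NWAT and 31.9% and 37.2% in SWAT. In NWAT, then, Tcf21 and Osr1 stood at like levels, and in SWAT Osr2 and Osr1 together made up most of the sum. Wt1 held 10.8% and 10.1% in EWAT and 12.7% and 17.9% in NWAT. These shares describe RNA levels on the FPKM scale and carry no test.

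Bnc2 codes for basonuclin 2, a zinc finger protein needed for craniofacial bone and the urethra in mice. Its depots differed little, at 48.0 and 38.6 CPM in EWAT, 41.1 and 42.3 in NWAT and 54.7 and 61.7 CPM in SWAT. Both SWAT libraries were above the other 4, and EWAT and NWAT overlapped. The differences were small, -0.43 ± 0.12 for EWAT (edgeR adjusted p = 0.0162) and -0.48 ± 0.12 for NWAT (edgeR adjusted p = 0.0158) against SWAT, and 0.05 ± 0.12 between EWAT and NWAT (edgeR adjusted p = 0.778). The calls against SWAT were lost on log2 (FPKM + 1) values (-0.20 and -0.22), where the median of all genes is shifted by 0.22 and 0.17. Both were also lost without SWAT replicate 2 (-0.34 and -0.40), that for EWAT without EWAT replicate 2 (-0.29), and that for NWAT without either NWAT library (-0.46 and -0.50). The gene is the longest of the set, from 84275095 to 84675275 on chromosome 4 on the minus strand.

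Hand2, a basic helix-loop-helix factor of the heart, limb buds and branchial arches, was near the detection limit. It had 7 and 2 counts in EWAT (0.327 and 0.0899 CPM), 1 and 0 counts in NWAT and 20 and 18 counts in SWAT (1.10 and 0.949 CPM). Both SWAT libraries lay above the other 4. It was 4.96-fold (95% counting interval 2.36 to 11.7) lower in EWAT than in SWAT and 42.5-fold lower in NWAT than in SWAT, with a counting interval of 7.17 to 1721 because NWAT held 1 count. The call for EWAT against SWAT (-2.27 ± 0.62, edgeR adjusted p = 0.0134) was lost in DESeq2 (-2.31) and without EWAT replicate 2 (-1.64), SWAT replicate 1 (-2.17) or SWAT replicate 2 (-2.38), and the value was -3.42 without EWAT replicate 1. NWAT against SWAT was called at -5.09 ± 0.91 (edgeR adjusted p = 0.00214), and at -4.26 without NWAT replicate 2. Without NWAT replicate 1, which holds the 1 NWAT count, the fitted value was -7.38, which then depends on the prior count. Of the exonic bases of Hand2, at 57320983 to 57324633 on chromosome 8, 19.6% lie under the antisense gene Hand2os1, and since strand use is not given, reads of the 2 genes cannot be told apart there.

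The genes with the most similar profiles over the 6 libraries were named for each factor by the root mean square (RMS) difference of centred log2 CPM. The candidates were tested genes whose log2 CPM averaged 2 or more. Wt1 and Tcf21 were each other's nearest gene, at an RMS difference of 0.66, followed for both by Hp, which codes for haptoglobin (1.83 and 1.35), and Col6a5, a collagen VI chain (2.17 and 1.77). For Gata6 the nearest were Pfn2, Car5b and Rab32, all within 0.05, and for Bnc2 Znrf3, Dusp18 and Adcy6, within 0.04. Foxf1 was nearest to Plscr2 (0.12), Ntrk3, a neurotrophin receptor, and Aox3. Osr1 was nearest to Trmt5 (0.06), the integrin gene Itga9 and Zadh2. Osr2 was nearest to the kinase gene Prkg2 (0.25), Cldn10 and the complement gene C4b, a near-copy of C4a that may take some of its reads, and Hand2 to Prkg2 (0.49), Cpz and Syk. Hlx was nearest to Eya4 (0.25), Smpd3 and Sema3c, which are likewise highest in NWAT, and Gata4 to Egflam, Tmem204 and Psat1 (0.54 each). The neighbours are a description over 6 libraries that share 3 depots, with no test.

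Wt1 is also expressed by mesothelial cells, which line the body cavity. Of 14 mesothelial markers, 11 could be tested; 8 were higher and 2 lower in EWAT than in SWAT, 8 were higher in NWAT than in SWAT, and 2 were higher and 1 lower in EWAT than in NWAT. The median log2 fold changes were 3.87, 2.83 and 0.34, against 0.01, 0.02 and 0.01 over all genes, and with the 3 genes that had 0 counts in SWAT set at their bound the first 2 were 2.18 and 2.10. In these comparisons, as in those of the mural cell markers below, 36.7%, 18.9% and 27.3% of all genes were called. Msln, Upk3b, Upk1b, Lrrn4, Gpm6a, Muc16 and Krt7 passed the filter on low counts through EWAT or NWAT, not SWAT. For these a difference from SWAT is built into being tested, and the counts and medians include them. Rspo1, Ezr, Krt19 and Cldn15 were over the minimum in every library. Krt19 (-2.14) and Cldn15 (-0.46) were the 2 markers lower in EWAT than in SWAT, and Krt19 (-3.14) was the 1 lower in EWAT than in NWAT. The summed level of the 14 mesothelial markers was 137 and 149 CPM in EWAT, 102 and 107 in NWAT and 60.2 and 73.5 CPM in SWAT. Upk3b stood at 1.89 and 1.67 FPKM in EWAT, 1.13 and 0.94 FPKM in NWAT and 0.05 FPKM in both SWAT libraries. Msln stood at 0.63 and 0.67 FPKM in EWAT, 0.45 and 0.31 FPKM in NWAT and 0 and 0.02 FPKM in SWAT. Gpm6a, Muc16, Upk1b and Bnc1 were at 0 in both SWAT libraries and at most 0.56 FPKM in the others. Among the 3 most abundant markers, Rspo1 stood at 32.7 and 35.0 FPKM in EWAT, 16.8 and 15.2 FPKM in NWAT and 1.91 and 2.02 FPKM in SWAT, whereas Cldn15, a claudin gene, was not lowest in SWAT, at 19.9 and 24.9 FPKM in EWAT, 19.0 and 23.9 FPKM in NWAT and 22.9 and 29.8 FPKM in SWAT. Ezr, which codes for ezrin, stood at 12.1 and 12.7 FPKM in EWAT, 8.03 and 7.83 FPKM in NWAT and 1.64 and 1.59 FPKM in SWAT. None of the 14 was at 0 in EWAT or NWAT, against 7 and 4 of 14 in SWAT. In the same units Wt1 stood at 51.5 and 56.1 FPKM in EWAT and 35.7 and 45.0 FPKM in NWAT. Of 7 mural cell markers, 5 were higher and 2 lower in EWAT than in SWAT, 1 was higher and 2 lower in NWAT than in SWAT, and 5 were higher and 1 lower in EWAT than in NWAT. Des, which codes for desmin, was the most abundant of them in EWAT, at 90.9 and 95.8 CPM in EWAT, 16.9 and 15.5 in NWAT and 6.09 and 4.17 CPM in SWAT, and the other 6 summed to 59.9 and 61.0 CPM in EWAT, 28.3 and 24.8 in NWAT and 47.9 and 69.8 CPM in SWAT. The skeletal muscle genes Acta1, Ckm and Myh4 stood at 0.713 CPM or less in every library. The part of RNA from these other cells in the Wt1 and Tcf21 differences was not tested.

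**Figure D4:**
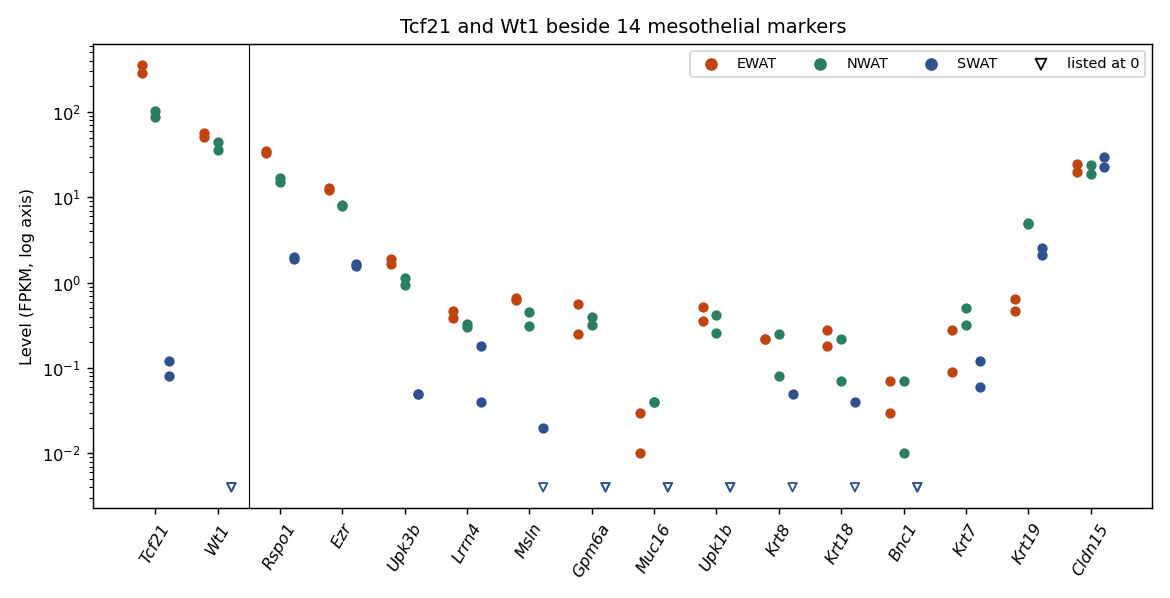
FPKM on a log axis (y) of Tcf21, Wt1 and 14 mesothelial markers (x) in the 2 libraries of EWAT, NWAT and SWAT; open triangles are values listed at 0. Wt1 at 35.7 to 56.1 FPKM in EWAT and NWAT lies above each marker, the nearest being Rspo1 (15.2 to 35.0 FPKM) and Cldn15 (19.0 to 24.9 FPKM), and most markers, but not Cldn15 and Krt19, have their lowest mean in SWAT.

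Family relatives of the 10 genes moved in both directions. Of 15, 12 were tested; in EWAT against SWAT 5 were higher and 2 lower, in NWAT against SWAT 6 and 2, and in EWAT against NWAT 4 and 3. The medians were 0.12, 1.05 and 0.04. Of all genes, 36.7%, 18.9% and 27.3% were called in the same comparisons. Gata2, a GATA factor of blood and endothelial cells that also restrains fat cell formation, showed the largest called change of these against SWAT, at 10.1 CPM in EWAT, 2.57 CPM in NWAT and 0.296 CPM in SWAT. It was higher in EWAT by 5.06 ± 0.30 (edgeR adjusted p = 1.55e-07) and in NWAT by 3.09 ± 0.35 (edgeR adjusted p = 6.56e-05) than in SWAT. Tcf23, a helix-loop-helix relative of Tcf21, was higher by 3.91 and 3.0 and stood at 10.2 CPM in EWAT, 5.41 CPM in NWAT and 0.669 CPM in SWAT. Tcf15 (2.30), Foxf2 (1.55) and Egr2 (1.0) were also higher in EWAT than in SWAT, and Egr1 (-0.57) and Egr3 (-0.77) lower. In NWAT against SWAT, Foxf2 (1.54) and Tcf24 (1.13) were higher and Msc (-1.0) and Egr3 (-0.70) lower. In EWAT against NWAT, Gata2 (1.97), Msc (1.18), Tcf23 (0.91) and Egr2 (0.82) were higher and Gata3 (-3.70), Egr4 (-2.85) and Tcf24 (-1.58) lower. Gata2 and Tcf23 passed the filter on low counts through EWAT and NWAT, Tcf15 through EWAT alone, and Gata3 and Egr4 through NWAT alone. For these genes a difference is built into being tested. Egr4 had 5 and 0 counts in EWAT against 20 and 16 in NWAT. Hand1 had no count in any library, and Bnc1 and Gata1 had too few to be tested.

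Binding partners of the factors were split as well. Of 18 that could be tested, EWAT was higher than SWAT for 6 and lower for 6, 2 were higher and 4 lower in NWAT than in SWAT, and 5 were higher and 5 lower in EWAT than in NWAT. The medians of 0.04, -0.01 and -0.05 lay near those of all genes, of which 36.7%, 18.9% and 27.3% were called. Id3 and Id2 code for helix-loop-helix proteins that sequester the E proteins with which Tcf21 and Hand2 pair, and in EWAT against SWAT they were higher by 0.95 and 0.76. Zfpm2, the FOG2 cofactor of GATA factors, was higher in EWAT (0.67) and NWAT (0.93), whereas Zfpm1, the FOG1 cofactor, was lower in EWAT (-1.06). The limb factor Tbx5, which pairs with Gata4 in the heart, was lower in EWAT (-6.71) and in NWAT (-6.35) than in SWAT, and Mef2c (-2.09 and -0.54) and Twist1 (-1.20 and -0.44) were lower too. In EWAT against NWAT, the steroidogenic regulator gene Nr5a1 (3.21) and Pawr (3.17), whose product binds Wt1, were higher, as were Id1 (0.85), Id2 (0.77) and Id3 (0.44). In that pair Mef2c (-1.55), Twist1 (-0.76), Zfpm1 (-0.72), Cited2 (-0.60) and Basp1 (-0.48) were lower. Nr5a1, with 20 and 21 counts in EWAT against 4 and 0 in NWAT, and Pawr passed the filter on low counts through EWAT alone. Tbx5 passed it through SWAT alone, and for these genes a difference is built into being tested. The E protein genes Tcf3, Tcf4 and Tcf12 were not called in any pair, with log2 fold changes between -0.27 and 0.35.

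Among 16 tested transcription factors of splanchnic, intermediate and urogenital mesoderm outside the set, 5 were higher and 6 lower in EWAT than in SWAT, with a median of -0.03. In NWAT against SWAT 5 were higher and 2 lower (median 0.31), and in EWAT against NWAT 4 and 6 (median -0.16). The shares of all genes called, in the same order, were 36.7%, 18.9% and 27.3%. Nr2f1 and Nr2f2, orphan nuclear receptors of the mesenchyme, were higher in EWAT than in SWAT by 1.58 and 0.67, and Meis1 (1.31), Meis2 (0.45) and Lhx9 (1.88) were higher too. The urogenital homeobox gene Emx2 was lower in EWAT (-2.07) and in NWAT (-1.68) than in SWAT. The nephron progenitor gene Six2 was lower in EWAT than in SWAT (-1.97), at 0.349 CPM in EWAT, 2.57 CPM in NWAT and 1.37 CPM in SWAT. The epicardial gene Tbx18 was lower in EWAT than in SWAT (-0.41). In NWAT against SWAT, Eya1 (1.72), Meis1 (0.94), Nr2f1 (0.55) and Meis2 (0.45) were higher and Nr2f2 (-0.75) lower. In EWAT against NWAT, Nr2f2 (1.41), Nr2f1 (1.03), Gli1 (0.75) and Meis1 (0.37) were higher and Six2 (-2.88), Tbx18 (-0.41) and Gli2 (-0.36) lower. Lhx9, with 16 and 15 counts in EWAT against 3 and 4 in SWAT, passed the filter on low counts through EWAT alone. Eya1 passed it through NWAT alone and Six2 through NWAT and SWAT, and for these genes a difference is built into being tested. Kidney epithelium regulators Pax2, Pax8, Lhx1 and Sall1 stood at 0.138 CPM or less in each depot and were not tested.

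Known targets of Wt1, Foxf1 and the GATA factors were called in both directions. Of 14 with enough counts, EWAT was higher than SWAT for 4 and lower for 1, 2 were higher and 4 lower in NWAT than in SWAT, and 5 were higher and 1 lower in EWAT than in NWAT. The medians were 0.18, 0.14 and 0.19. Over all genes 36.7%, 18.9% and 27.3% were called in these comparisons. Aldh1a2, which codes for a retinoic acid synthesis enzyme and is a Wt1 target in the epicardium, stood at 30.1 CPM in EWAT, 2.81 CPM in NWAT and 1.79 CPM in SWAT. It was higher in EWAT than in SWAT by 4.06 ± 0.25 (edgeR adjusted p = 5.08e-07), and NWAT against SWAT was not called (0.64 ± 0.30, edgeR adjusted p = 0.177). Wt1 stood at 106 and 135 CPM in NWAT, and its part in the Aldh1a2 levels was not tested. Star, a cholesterol carrier of steroid-making cells and a GATA target, was higher by 2.23 in EWAT and 1.01 in NWAT. Amhr2 (1.79) and the receptor tyrosine kinase inhibitor gene Spry1 (0.77) were higher in EWAT than in SWAT. Amhr2 rested on 15 and 14 counts in EWAT against 5 and 2 in SWAT. It passed the filter on low counts through EWAT and NWAT, so a difference from SWAT is built into being tested. Hhip, a Hedgehog-binding protein, was lower in EWAT (-2.55) and NWAT (-1.96) than in SWAT. In NWAT against SWAT, Wnt5a (0.68) was higher and Snai1 (-0.91), Bmp4 (-0.63) and Spry1 (-0.48) were lower. In EWAT against NWAT, Aldh1a2 (3.42), Spry1 (1.24), Star (1.21), Snai1 (1.13) and Bmp4 (0.50) were higher and Wnt5a (-0.54) lower. The podocyte targets Nphs1 and Podxl and the integrin gene Itga4 were not called in any pair.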

How the data were processed

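Estimated counts per gene symbol, as deposited, are not normalized, and 31.7% to 33.1% of them are not whole. The authors also gave FPKM values, scaled by gene length and library size per the file headers. The submitters' processing notes name GRCm38.p6, Cell Ranger and Seurat, with neither version nor role. Aligner, counting program and strand setting: not given in the sources used here. Each table had 2 columns that matched no label; these were left out, so the planned mesenteric comparisons were not run. The other 6 were matched by depot letter and replicate number.

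Estimated counts were rounded, scaled by TMM, filtered with filterByExpr by depot (count minimum 10, total minimum 15; 13694 genes left) and fitted with edgeR 4.0.16's robust quasi-likelihood model in R 4.3.3, 1 coefficient per depot, 3 residual degrees of freedom, with Benjamini-Hochberg adjustment over all genes at 0.05. Scripts were tested on simulated data. Each SE is |log2 fold change| over the root of F. Fold intervals are exact 95% binomial intervals on summed counts. Alternatives used DESeq2 1.42.0, limma 3.58.1 on log2 (FPKM + 1) and log2 (FPKM + 0.1), other filters and left-out libraries. The 10 genes and the lists were chosen with earlier results of these data known. All 10 are described; list genes are named where a list had up to 5 calls in a direction, otherwise the 4 largest changes among genes averaging 0 or more log2 CPM. Not every list gene that met this rule is reported here. Marker sums without their leading genes were added after values were seen. Some values picked as examples, such as genes at low level or not called, were named after their values were seen. Replicates differed by more than sampling noise (chi-square per gene 9.32 to 19.4). Gene positions come from GENCODE M21 and promoter windows from RefSeq, both on GRCm38.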

Additional observations from a re-analysis of the deposited data

How the results depend on the processing

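Each result was recomputed under 13 alternatives (12 for Hand2, which a stricter filter of 1 CPM removed). Of 387 recomputed log2 fold changes of single genes, 350 kept their direction and side of the threshold, 28 lost and 5 gained a call, and 4 changed sign. The 4 were EWAT against NWAT values near 0, of Bnc2 without EWAT replicate 1 (-0.111, range with 1 library left out up to 0.199) and, without NWAT replicate 2, of Foxf1 (-0.041, up to 0.151), Osr1 (-0.056, up to 0.212) and Osr2 (-0.096, up to 0.237). The calls of Wt1 and Tcf21 against SWAT, of Tcf21 and Hlx between EWAT and NWAT, and of Gata6, Foxf1 and Osr2 against SWAT held under all their alternatives. Leaving out 1 library, the number of the 10 genes called was 6 to 10 for EWAT against SWAT, 7 to 9 for NWAT against SWAT, 2 to 4 for EWAT against NWAT and 8 to 10 in the joint test. The low values were 6 without SWAT replicate 2 and 2 without EWAT replicate 2. Over all genes these counts were 3085 to 5672, 1467 to 3323, 2129 to 4884 and 4084 to 6882, and fewer samples were fitted. On log2 (FPKM + 1) values, which use no TMM factors, the median log2 fold change moved by 0.22 for EWAT and 0.17 for NWAT against SWAT. Of the calls, 79.4% and 78.3% were then higher in EWAT and NWAT, against 50.9% and 52% from counts, and 8 of the 10 genes were called in each comparison, 6 higher and 2 lower. The labels give the depots the same replicate numbers, but deviations of same-numbered libraries correlated at 0.001 to 0.11, so the numbers were not taken to pair samples. With a replicate block, 10, 9 and 5 of the 10 genes were called, and 5043, 2595 and 3793 of all genes. The 1 call it added was Wt1 between EWAT and NWAT (0.38), and it changed no other call of the 10 genes. Depth limits Gata4, Hand2 and, in SWAT, Foxf1 and Tcf21, which rest on at most 29 counts per library there.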
